A study of Homo sapiens with 6 samples.

Results

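The genes described here are the 3 E-protein genes TCF3, TCF4 and TCF12 and the 4 genes of the inhibitors ID1, ID2, ID3 and ID4, 7 of the 58884 genes in the table. They were chosen by gene symbol, and each symbol had 1 row. The choice was made from earlier results of the same comparison, in which TCF4 stood out, so the values of the 7 genes are given as a description with a standard error and without a test. The RNA came from KYSE70 cells, a human cell line of esophageal squamous cell carcinoma (ESCC) that carries a mutated NFE2L2, and from NRF2null-KYSE70, its derivative in which CRISPR-Cas9 cut NFE2L2, the gene of the transcription factor NRF2. NRF2null-KYSE70 was grown from 1 cell clone, so a difference between the lines is a difference between this clone and its parent, and other clones were not analysed here. Both lines were left untreated and grown in the same RPMI medium with serum and antibiotics. Each line had 3 libraries, and library 1, 2 or 3 below means its place among that line's columns.

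Each library had between 52072801 and 63975313 reads counted in genes. NFE2L2 RNA was at 9928 ± 102 normalized counts (SD, n = 3) in the parental line and at 6093 ± 319 in the clone, 61.4% of the parental level. This checks the labels only in part, since an edited gene can still make RNA. The paper also reports a faint, smaller NRF2 protein band in the clone, and states that NRF2 was not fully abolished there. Of the squamous epithelium markers, 9 of 9 were measured in both lines, and KRT5 was at 209917 ± 2822 normalized counts in the parental line and 124640 ± 3103 in the clone. Normalized counts are read counts divided by 1 scaling factor per library, and they compare 1 gene between libraries but not different genes with each other.

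E-proteins are basic helix-loop-helix (bHLH) transcription factors. They pair with each other, or with bHLH partners made in particular tissues, and the pair binds a short DNA motif called the E-box. ID proteins have the helix-loop-helix that makes the pair but lack the basic stretch that touches DNA, so an E-protein held by an ID protein does not bind. ID genes are well known targets of bone morphogenetic protein (BMP) signaling through SMAD proteins. TCF4, also called E2-2, is known for its part in plasmacytoid dendritic cells and in neurons. It is a different gene from TCF7L2, the WNT pathway factor that is often called TCF4 as well.

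The sequences upstream of the starts of TCF4, ID3, ID2 and ID4 are shown because the first pair had the largest differences between the lines and the second pair is where an E-box lay. Each is the 250 bases before the RefSeq start nearest to the annotated main start (GRCh38.p14), 5′ to 3′ on the gene's own strand, with E-boxes of the form CANNTG in capitals. They lie at chr18:55588193-55588442 on the minus strand for TCF4, at chr1:23559502-23559751 on the minus strand for ID3, at chr2:8681806-8682055 on the plus strand for ID2 and at chr6:19837120-19837369 on the plus strand for ID4.
TCF4: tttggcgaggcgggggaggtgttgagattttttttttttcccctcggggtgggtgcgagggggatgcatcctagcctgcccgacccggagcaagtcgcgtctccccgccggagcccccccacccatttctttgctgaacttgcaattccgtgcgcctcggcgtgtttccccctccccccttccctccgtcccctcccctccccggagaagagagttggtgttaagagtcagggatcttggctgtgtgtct
ID3: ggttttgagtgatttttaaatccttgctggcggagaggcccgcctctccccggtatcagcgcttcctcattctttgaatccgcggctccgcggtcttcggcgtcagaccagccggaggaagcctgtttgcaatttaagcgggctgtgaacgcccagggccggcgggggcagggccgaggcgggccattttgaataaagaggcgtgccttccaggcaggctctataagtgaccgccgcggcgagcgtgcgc
ID2: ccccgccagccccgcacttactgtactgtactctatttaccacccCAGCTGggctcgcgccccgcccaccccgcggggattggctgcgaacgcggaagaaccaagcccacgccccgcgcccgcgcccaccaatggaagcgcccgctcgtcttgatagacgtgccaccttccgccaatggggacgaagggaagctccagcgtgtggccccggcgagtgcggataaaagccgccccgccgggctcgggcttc
ID4: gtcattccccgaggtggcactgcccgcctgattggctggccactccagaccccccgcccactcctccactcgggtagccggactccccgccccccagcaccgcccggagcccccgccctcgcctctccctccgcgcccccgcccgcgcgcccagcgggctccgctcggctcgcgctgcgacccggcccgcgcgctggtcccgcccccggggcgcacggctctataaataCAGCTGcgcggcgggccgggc
ID2 and ID4 each held 1 CAGCTG, a match to CAGNTG, which is contained in CANNTG. No CANNTG was found in these windows of TCF4, ID3, ID1, TCF3 or TCF12. Among 35116 RefSeq upstream windows of the same length, 61.8% held CANNTG and 42.5% held CAGNTG. TCF4 has 10 RefSeq starts with such a window, and 5 of these windows held 1 CANNTG. TCF12 has 5 RefSeq starts, and its windows at other starts included a CACGTG and a CATGTG, both of the form CANNTG. The core of the NRF2 binding motif, TGACNNNGC, was in none of the 20 windows of the 7 genes, on either strand, and in 10.9% of all windows. A match or its absence describes only these letters in this window.

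TCF4 RNA was nearly lost in NRF2null-KYSE70. The 3 KYSE70 libraries had 4481, 4655 and 4236 normalized counts of TCF4, and the 3 NRF2null-KYSE70 libraries had 19.3, 30.4 and 24.0. The lines lay far apart, and the spread within each line was small beside the distance between them. The means were 4457 ± 211 and 24.5 ± 5.59 (SD, n = 3), a level 182-fold lower, or 0.551% of the parental one. On the log2 scale the difference was -7.47 (SE 0.15). In reads, TCF4 had 5039, 5132 and 4017 in KYSE70 against 19, 31 and 21 in NRF2null-KYSE70. The residual level therefore rested on 71 reads in all, and it differed up to 1.58-fold between libraries of that line.

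The difference of TCF4 ranked 16th among the falls of the 11997 genes with a mean of at least 100 normalized counts. Of 8059 genes with a mean of at least 1000 in KYSE70, 10 were under 1% of the parental level in NRF2null-KYSE70, TCF4 among them, and 237 were under 50%. TCF4 (ENSG00000196628) spans chr18:55222185-55664787 on the minus strand (hg38). GENCODE v44 annotates 93 transcripts for it, and the deposited value is 1 count for the gene. Which transcripts entered that count was not stated.

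**Figure D1:**
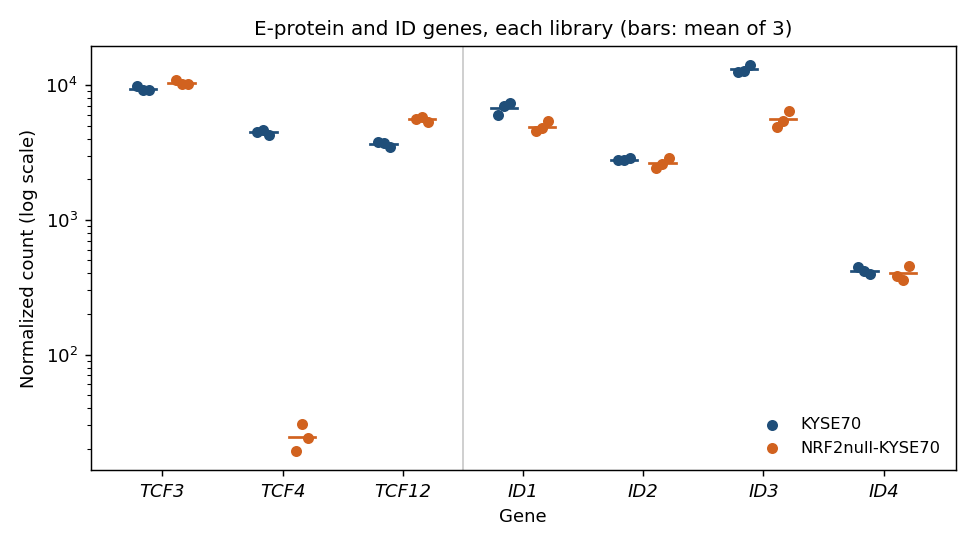
Normalized counts of the 7 genes on a log axis, with 1 point per library and a bar at the mean of the 3 libraries of a line. TCF4 sits at 4236 to 4655 in KYSE70 and at 19.3 to 30.4 in NRF2null-KYSE70, ID3 is lower and TCF12 higher in every NRF2null-KYSE70 library, and the points of ID2 and of ID4 overlap between the lines.

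The other E-protein genes were higher in NRF2null-KYSE70, by less. TCF12, which encodes HEB, had 3751, 3693 and 3499 normalized counts in KYSE70 and 5601, 5819 and 5345 in NRF2null-KYSE70. All 3 libraries of NRF2null-KYSE70 were above all 3 of KYSE70. The TCF12 means were 3648 ± 132 and 5588 ± 237 (SD, n = 3), 153% of the parental level, with a log2 difference of 0.62 (SE 0.053). TCF3, which encodes the E12 and E47 proteins by alternative splicing, had 9824, 9162 and 9276 normalized counts in KYSE70 and 10927, 10139 and 10127 in NRF2null-KYSE70. The lines did not overlap, but the nearest libraries were close. The TCF3 log2 difference was 0.14 (SE 0.050), from 9421 ± 354 to 10398 ± 458. It was 0.07 when libraries were scaled to their total and 0.03 after quantile normalization.

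Among the ID genes, ID3 had the largest difference. ID3 had 12538, 12659 and 14048 normalized counts in KYSE70 and 4855, 5442 and 6412 in NRF2null-KYSE70. The highest NRF2null-KYSE70 library was well under the lowest KYSE70 library. The ID3 means were 13082 ± 839 and 5570 ± 786 (SD, n = 3), 42.6% of the parental level, with a log2 difference of -1.24 (SE 0.084). Of all tested genes, 11.7% had a larger absolute log2 difference than ID3.

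ID1, the family member best known as an immediate BMP target, was lower as well. It had 6006, 6943 and 7346 normalized counts in KYSE70 and 4562, 4804 and 5416 in NRF2null-KYSE70. The lines did not overlap, although the lowest KYSE70 library and the highest NRF2null-KYSE70 library were near each other. The ID1 means were 6765 ± 687 and 4927 ± 440, 72.8% of the parental level, with a log2 difference of -0.46 (SE 0.078). In both lines library 1 was the lowest and library 3 the highest for ID1 and for ID3. Library 3 was also the shallowest of each line, and the part of depth in this order was not tested.

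ID2 and ID4 overlapped between the lines. ID2 had 2777, 2766 and 2856 normalized counts in KYSE70 and 2408, 2593 and 2859 in NRF2null-KYSE70, with a log2 difference of -0.10 (SE 0.066). ID4 had 450.0, 415 and 393 in KYSE70 and 385, 360 and 455 in NRF2null-KYSE70, with a log2 difference of -0.07 (SE 0.118). For both genes the highest library of all was library 3 of NRF2null-KYSE70.

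In a limma fit over all genes, an adjusted p under 0.05 was reached by 57.6% of the 15994 tested genes, by 29.3% as higher and by 28.3% as lower in NRF2null-KYSE70. Of the 7 genes, which all passed the filter of a mean of at least 10, 5 met that rule, TCF3 and TCF12 as higher and TCF4, ID1 and ID3 as lower. The rule that adds an absolute log2 difference of at least 1 was met by 14.7% of tested genes and by TCF4 and ID3. The lines had no overlap in their libraries for 63.4% of tested genes and for 5 of the 7. Nothing is read from these member counts, since this comparison was used in the choice. The median log2 difference of the 7 genes was -0.10, that of all tested genes was -0.01, and the median absolute difference of all tested genes was 0.36.

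To set levels of different genes side by side, reads were divided by the merged exon length in kilobases, with each library scaled to 1000000 reads (RPKM). On this scale KYSE70 had most ID3, at 154 RPKM, and then ID1 at 96.6, TCF3 at 26.05, ID2 at 22.3, TCF12 at 6.80, TCF4 at 2.69 and ID4 at 1.91. No neighbours in that order overlapped in their libraries. In NRF2null-KYSE70 the order was ID1 at 66.8, ID3 at 62.3, TCF3 at 27.3, ID2 at 19.8, TCF12 at 9.89, ID4 at 1.73 and TCF4 at 0.0141. There ID1 and ID3 overlapped and no other neighbours did. With libraries scaled to their totals in this way, ID2 was at 22.1 to 22.7 RPKM in KYSE70 and at 18.04 to 21.7 in NRF2null-KYSE70 and did not overlap, unlike its normalized counts. TCF3 went the other way, at 25.4 to 27.1 RPKM in KYSE70 and 26.6 to 28.5 in NRF2null-KYSE70, which overlap although its normalized counts did not. ID1 and ID3 held the top places in both lines, and TCF4 went from sixth place to last. Which of ID1 and ID3 led in NRF2null-KYSE70 depended on the length used. With the longest transcript ID3 was at 84.8 to 114 RPKM there and ID1 at 61.4 to 73.9, without overlap. Both kinds of length came from GENCODE v44, and the annotation used in the counting may have differed.

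With libraries scaled to their totals, the summed level of the 3 E-protein genes overlapped between the lines. It was 36.8, 35.1 and 34.7 RPKM in KYSE70 and 38.3, 37.0 and 36.3 in NRF2null-KYSE70. The overlap may depend on the scaling, as that of TCF3 did, and the sum was not taken on normalized counts. TCF3 made up 72.3% to 73.9% of that sum in KYSE70 and 72.1% to 74.3% in NRF2null-KYSE70. The share of TCF4 was 7.34% to 8.02% in KYSE70 and 0.0286% to 0.0472% in NRF2null-KYSE70, and that of TCF12 was 18.8% to 19.7% and 25.7% to 27.9%. The merged exons of the many TCF4 transcripts are long, and with the length of the longest transcript in their place the TCF4 share was 16.7% to 18.02% in KYSE70 and 0.0716% to 0.118% in NRF2null-KYSE70. With that length the mean E-protein sum was 54.9 in KYSE70 and 52.0 in NRF2null-KYSE70, so the direction of its small difference depended on the length used.

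The summed level of the 4 ID genes was lower in NRF2null-KYSE70 with either length. It was 257, 273 and 294 RPKM in KYSE70 and 135, 147 and 170 in NRF2null-KYSE70. ID3 made up 54.8% to 57.3% of the ID sum in KYSE70 and 39.9% to 42.5% in NRF2null-KYSE70, while the share of ID1 was 33.3% to 36.4% and 43.5% to 45.5%. With the longest transcript ID3 made up 65.3% to 67.5% and 50.7% to 53.3% and ID1 24.9% to 27.6% and 34.7% to 36.7%, so ID3 was lower and ID1 higher as a share with either length, but ID1 had the larger share in NRF2null-KYSE70 only with merged exons. The ratio of ID RNA to E-protein RNA was 6.98, 7.77 and 8.49 in KYSE70 and 3.52, 3.98 and 4.68 in NRF2null-KYSE70. The means were 7.75 ± 0.751 and 4.06 ± 0.582 (SD, n = 3), and the lines did not overlap. This is a ratio of RNA and not of protein.

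**Figure D2:**
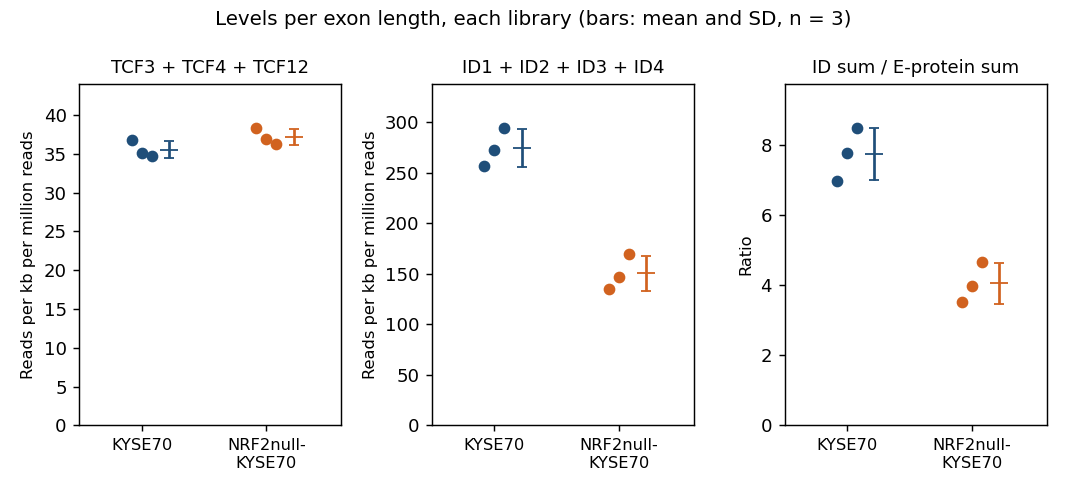
Summed level per merged exon length of the E-protein genes, of the ID genes, and the ratio of the sums, with 1 point per library and a bar for the mean and SD of 3 libraries. With libraries scaled to their totals, the E-protein sums of the lines overlap, at 34.7 to 38.3 over both lines, and the ID sums do not. The ratio is 6.98 to 8.49 in KYSE70 and 3.52 to 4.68 in NRF2null-KYSE70.

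Each gene was also set beside the expressed protein-coding genes around it, 20 on each side with a mean of at least 50, or 31 in all for ID2 near the end of its chromosome. The differences of ID1 and TCF12 were close to those of their surroundings. ID1 (ENSG00000125968, chr20:31605283-31606515, plus strand) differed by -0.46 on the log2 scale and its 40 neighbours by a median of -0.39, with 27 called lower and 4 higher. TCF12 (ENSG00000140262, chr15:56918623-57299281, plus strand) differed by 0.62 and its neighbours by a median of 0.48, with 33 called higher and 4 lower. ID3 (ENSG00000117318, chr1:23557926-23559501, minus strand) was at -1.24 beside a neighbour median of 0.01. All 40 of its neighbours had higher log2 differences than ID3, but the lowest of them, GRHL3, was close to it at -1.20. For TCF3 (chr19:1609291-1652615, minus strand), ID2 (chr2:8678845-8684461, plus strand) and ID4 (chr6:19837370-19842197, plus strand) the neighbour medians were 0.09, 0.13 and 0.04, and 23 of the 31 neighbours of ID2 had higher log2 differences than ID2. The copy number of the DNA was not measured here, and its part in the values of ID1, TCF12 and TCF4 was not tested.

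**Figure D3:**
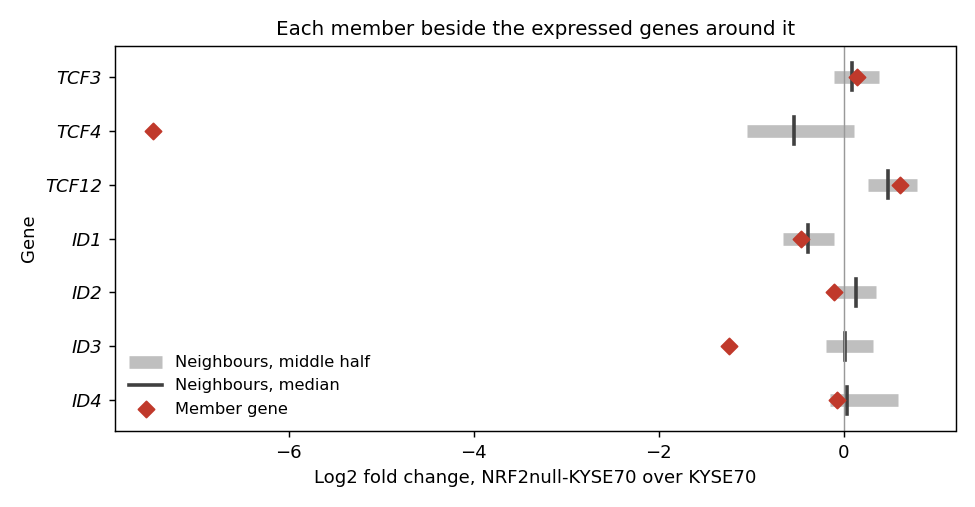
Log2 difference of each of the 7 genes (diamond) beside the expressed protein-coding genes around it (dark line, median, and grey bar, lower to upper quartile). TCF4 at -7.47 and ID3 at -1.24 lie left of their neighbours' bars, ID2 at -0.10 lies just left of its bar, which starts at -0.07, and ID1 and TCF12 lie inside theirs.

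TCF4 lay inside a stretch of chromosome 18 in which the protein-coding genes that averaged 50 normalized counts or more were lower in a row. The stretch ran from C18orf32 to NEDD4L, chr18:49477243-58401540, 8.92 megabases, and held 22 such genes beside TCF4, 16 before it and 6 after. Its bounds were found from these values, so they are a description and were not tested. The median log2 difference of the 22 genes was -0.92, or 53.0% of the parental level, with quartiles of -1.21 and -0.57, and 20 of the 22 were called lower. LIPG, a lipase gene inside the stretch with a mean under 50, went the other way, and rose from 8.58 ± 3.51 normalized counts to 24.9 ± 5.30 (limma adjusted p = 0.0192). The genes just outside were DYM at 0.20 and ALPK2 at 2.18, and the median of 169 genes of chromosome 18 was 0.07. The log2 difference of TCF4 minus the median of the stretch was -6.55, and the next lowest, MRO, was at -4.62. Among protein-coding genes that averaged 50 normalized counts or more, the nearest were RAB27B and TXNL1. RAB27B, a small GTPase of vesicle secretion, was at -2.98, and TXNL1, a thioredoxin-like protein, was at -1.04. SMAD4, the shared partner of the BMP-responsive SMADs, lay in the stretch, at -0.72.

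**Figure D4:**
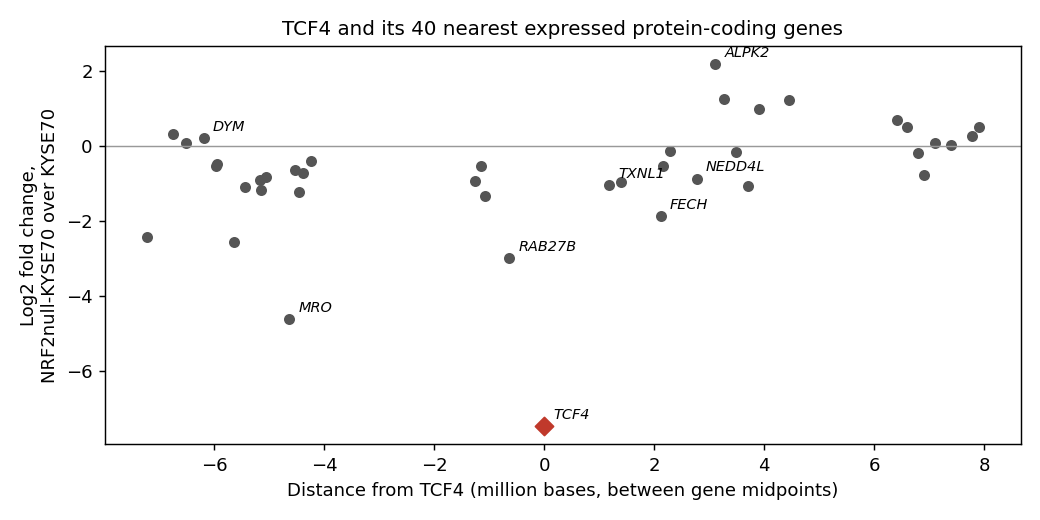
Log2 difference of TCF4 (diamond) and of its 40 nearest expressed protein-coding genes (points) against distance from TCF4 in megabases. Most points near TCF4 on either side lie below 0, down to -4.62 for MRO, and TCF4 lies lower than all of them at -7.47.

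The long noncoding RNAs beside TCF4 were also lower. AC022031.2 starts within TCF4 on the opposite strand and had 121, 152 and 85 reads in KYSE70 and 0, 2 and 0 in NRF2null-KYSE70. AC009271.1, further upstream of TCF4, had 160, 132 and 121 reads against 0, 0 and 1. All 3 libraries of NRF2null-KYSE70 were at or under 3 reads for both. AC006305.1, next to it, had 34, 24 and 30 reads against 8, 4 and 4. Inside TCF4, TCF4-AS1 had 1, 1 and 3 reads in KYSE70 and 0 in each NRF2null-KYSE70 library, while MIR4529, TCF4-AS2 and the pseudogene RPL21P126 had no read in any library. Whether the counting used strand was not stated, so reads where these genes overlap TCF4 cannot be assigned with certainty.

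Other overlapping genes held few reads. ID2-AS1, on the opposite strand, overlaps the 5′ end of the annotated span of ID2 and ends upstream of its main start. It had 27, 45 and 15 reads in KYSE70 and 54, 76 and 63 in NRF2null-KYSE70. It passed both thresholds with a log2 fold change of 1.38 (limma, adjusted p = 0.00529 over all tested genes). LNC-LBCS, antisense to the start of ID4, had 21, 17 and 31 reads against 24, 15 and 25. RNU6-1223P in TCF3 and HNRNPA3P11 and SNORD13D in TCF12 had at most 1 read in any library.

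The genes whose pattern over the 6 libraries was most like that of TCF4 were found among 11996 others, by the root mean square difference of log2 values centred for each gene. They were ZNF268 at 0.194, ROBO2 at 0.205, FAM19A5 at 0.246, MAGEE1 at 0.2503 and ZNF485 at 0.266. In contrast to TCF4, all 5 had 3 reads or fewer in every NRF2null-KYSE70 library, so their log2 values there, and with them the closeness to TCF4, depend on the pseudocount of 1. With 3 reads in each of these libraries as a floor, ZNF268 was at least 161-fold lower and ROBO2, FAM19A5, MAGEE1 and ZNF485 at least 75.3-fold, 66.1-fold, 72.9-fold and 65.3-fold lower. They lie on chromosomes 12, 3, 22, X and 10, none on the chromosome of TCF4.

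Class II bHLH factors are the tissue-restricted partners of E-proteins, and most were silent in both lines. Of 47 listed genes 28 had no read in any library, and 7 passed the filter. Of the 7, 3 rose, 2 fell and 2 did not pass, so that 71.4% were called beside 57.6% of all tested genes. Their median log2 difference was -0.53 beside -0.01 over all tested genes. MSC, which encodes the repressor musculin, had 839, 939 and 868 normalized counts in KYSE70 and 40.6, 25.5 and 13.7 in NRF2null-KYSE70, and it fell by 5.12 on the log2 scale (SE 0.293, limma adjusted p = 1.46e-08). TCF15, paraxis, fell from 172 ± 17.2 to 49.8 ± 16.4. The genes that rose started low, with TWIST1, a mesenchymal regulator, at 10.9 ± 4.85 and then 55.4 ± 17.8 normalized counts. BHLHA15, a secretory cell factor, went from 12.9 ± 6.52 to 39.1 ± 12.3 and SCX, scleraxis of tendon, from 9.97 ± 3.95 to 29.1 ± 12.4. The summed normalized count of the list was 1107 to 1263 in KYSE70 and 245 to 295 in NRF2null-KYSE70. MSC alone made up most of that sum in KYSE70 and little of it in NRF2null-KYSE70.

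The HES, HEY and BHLHE repressors are bHLH factors that form pairs of their own kind, many of them under NOTCH. Of 11 tested, 1 rose, 4 fell and 6 did not pass, with a median log2 difference of -0.09. The share called was 45.5% beside 57.6% of all tested genes. In place of 5, a total of 3 passed when library 1 or library 2 of KYSE70 was left out. HEY1 had 1120, 1313 and 1176 normalized counts in KYSE70 and 384, 278 and 342 in NRF2null-KYSE70, and it fell by 1.85 on the log2 scale (limma, SE 0.120, adjusted p = 4.52e-08). HES5 fell from 38.7 ± 10.5 to 12.2 ± 9.33, and BHLHE41 from 45.8 ± 10.9 to 14.0 ± 2.99. The zinc finger repressors that also bind E-boxes gave 2 falls, 0 rises and 3 genes that did not pass among 5 tested. Their median was 0.01, and 40% were called beside the same 57.6%. ZEB1 fell from 58.4 ± 7.88 to 25.5 ± 10.3 normalized counts, and SNAI2, known as SLUG, was at 1697 ± 36.5 and 1780 ± 90.1.

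Among 11 tested cofactors of E-proteins, 3 rose, 6 fell and 2 did not pass, and none passed both thresholds. Their median log2 difference was -0.29, and 81.8% were called beside 57.6% of all tested genes. The acetyltransferase gene KAT2B was at 54.1% of its parental level and the LDB1 partners SSBP2 and SSBP3 at 55.0% and 61.4%, while the LIM-only gene LMO4 was at 194%. Of 9 genes for the turnover of ID and E-proteins, 5 fell (among them WDR48, STUB1 and USP1), 1 rose (HUWE1) and 3 did not pass, with a median of -0.19. USP1 and its partner WDR48, known to remove ubiquitin from ID proteins, were at 87.4% and 74.6% of their parental levels. Of the turnover genes 66.7% were called, and their changes were all below an absolute log2 difference of 1.

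BMP and SMAD genes act upstream of ID transcription. Of 34 tested, 13 rose, 7 fell and 14 did not pass, so that 58.8% were called beside 57.6% of all tested genes, with a median log2 difference of 0.03, and 10 rises and 2 falls passed both thresholds. Among ligands, BMP2 had 30.2, 6.35 and 2.11 normalized counts in KYSE70 and 188, 199 and 170 in NRF2null-KYSE70, and it rose by 4.38 on the log2 scale (limma, SE 0.620, adjusted p = 5.44e-05). BMP5 had 15.1, 8.16 and 1.05 against 108, 120 and 83.3. Both were at low levels, and no library of KYSE70 reached those of NRF2null-KYSE70. BMP4 rose from 310 ± 34.7 to 642 ± 74.3, while BMP6 fell from 1122 ± 72.1 to 374 ± 68.5 and BMP7 was at 4534 ± 133 and 4337 ± 289 and did not pass.

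Among the tested extracellular antagonists or modulators of BMP, NOG, CHRD, FST, FSTL1, SOSTDC1, TWSG1 and CRIM1 rose, NBL1 fell and FSTL3 did not pass. This grouping was made after the values were seen, and nothing is read from how many rose. Of all tested genes 29.3% were called higher. NOG, noggin, had 0.889, 12.7 and 1.05 normalized counts in KYSE70 and 233, 233 and 153 in NRF2null-KYSE70, and it rose by 5.76 on the log2 scale (limma, SE 0.636, adjusted p = 6.31e-06). FST, follistatin, had 914, 925 and 898 against 4756, 4472 and 4388, 497% of the parental level. SOSTDC1 rose from 4133 ± 205 to 13093 ± 384, CRIM1 from 5092 ± 355 to 21518 ± 3827 and CHRD from 195 ± 30.3 to 354 ± 22.5. NBL1 fell to 89.6% of its parental level. FSTL1, a follistatin-like protein, rose from 42.6 ± 10.7 to 270.0 ± 31.9, and RGMA, a BMP co-receptor, fell from 1143 ± 142 to 379 ± 56.2.

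Among the type I and type II receptors and the SMADs that relay the signal, the log2 differences of BMPR1A, BMPR2, SMAD1 and SMAD5 were -0.04, -0.04, -0.03 and -0.07, and none of these 4 passed the test. ACVR2B fell to 83.3% of its parental level, and ACVRL1, at 16.7 ± 5.55 and 5.79 ± 4.72 normalized counts, had a log2 difference of -1.55 and did not pass. SMAD9 and SMAD4 fell, to 55.9% and 60.7% of their parental levels. SMAD6 and SMAD7 inhibit the pathway and are themselves BMP targets, and SMAD6 fell to 86.9% while SMAD7 was at 106% and did not pass.

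**Figure D5:**
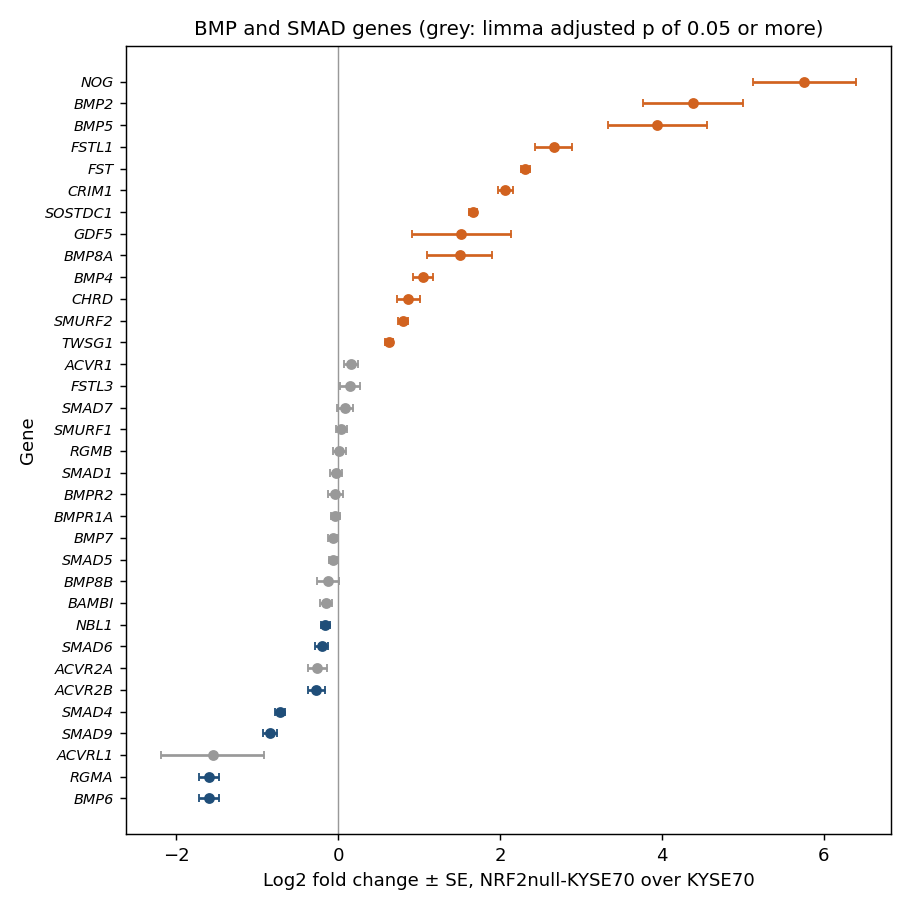
Log2 difference with its SE for the 34 tested BMP and SMAD genes, in order (orange, higher and blue, lower at a limma adjusted p under 0.05, grey, not passed). NOG, BMP2 and BMP5 are at the top with 5.76, 4.38 and 3.94, BMP6 and RGMA at the bottom with -1.59 each, and the receptors BMPR1A and BMPR2 lie near 0.

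CDK inhibitors and cadherins include genes whose promoters E-proteins are known to act on. Of 7 tested, 5 rose, 1 fell and 1 did not pass, so that 85.7% were called beside 57.6% of all tested genes. The median log2 difference was 0.58 beside -0.01 over all tested genes. CDKN2A, with no read in any library, and CDKN2B, at means of 0.296 and 0.992 normalized counts, were not tested. CDKN1A, which encodes p21, rose to 149% and CDKN1B, which encodes p27, to 146% of the parental level. CDH1, E-cadherin, rose from 6425 ± 421 to 9787 ± 956 normalized counts and CDH2, N-cadherin, from 5152 ± 306 to 12688 ± 1481. CDKN1C rose from 20.2 ± 14.8 to 69.6 ± 18.5, and CDKN2C fell to 63.8% of its parental level.

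The genes of the TCF/LEF family of WNT signaling, some of which share the TCF name, went both ways, with 2 that rose, 1 that fell and 1 that did not pass. TCF7L2 had 948, 1008 and 928 normalized counts in KYSE70 and 1981, 1837 and 1706 in NRF2null-KYSE70, and it rose by 0.93 on the log2 scale (SE 0.075, limma adjusted p = 3.12e-07). TCF7L1 rose from 732 ± 73.8 to 982 ± 85.3, LEF1 fell from 1089 ± 54.3 to 482 ± 49.4, and TCF7 was at 64.3 ± 10.3 and 45.7 ± 16.4 and did not pass. The median of these 4 genes was -0.05, and 75% of them were called beside 57.6% of all tested genes.

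Of the markers of other cell types some had no read and others were expressed in both lines. Of 7 plasmacytoid dendritic cell markers, a cell type known for TCF4, 2 were tested and 3 had no read, with CLEC4C, LILRA4 and GZMB at 0 in every library. BCL11A, at 706 ± 67.5 and 510.2 ± 45.3 normalized counts, made up most of that list's summed level of 660 to 799 in KYSE70 and 467 to 556 in NRF2null-KYSE70. Of 5 neuron markers 2 were tested. SYT1 fell from 62.2 ± 17.4 to 21.03 ± 12.1, while SNAP25 was at 19.1 ± 5.84 and 26.7 ± 18.9 and did not pass. The neuron list summed to 72.0 to 120 in KYSE70 and 19.3 to 97.1 in NRF2null-KYSE70. Of 8 fibroblast markers 3 were tested, and COL1A2 and DCN had no read. COL3A1 fell from 257 ± 38.7 to 8.46 ± 2.56 and COL1A1 from 1232 ± 88.4 to 554 ± 78.9, while THY1 rose from 2429 ± 105 to 2702 ± 143, and the summed level was 3851 to 3973 in KYSE70 and 3039 to 3454 in NRF2null-KYSE70. Of 6 leukocyte and endothelial markers 2 were tested, and the sum was 134 to 149 in KYSE70 and 315 to 494 in NRF2null-KYSE70. VWF made up most of that sum in both lines, and it rose from 142 ± 8.46 to 353 ± 88.8 normalized counts. PTPRC, the leukocyte antigen CD45, had 0, 0 and 1.05 normalized counts in KYSE70 and 42.6, 40.2 and 47.9 in NRF2null-KYSE70. CD3E, PECAM1 and CDH5 had no read in KYSE70. The squamous markers divided, with 6 that rose and 3 that fell, among them TP63 at 52.7%, KRT5 at 59.4% and DSG3 at 60.0% of their parental levels. The part of these markers in the values of the E-protein and ID genes was not tested.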

How the data were processed

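RNA-seq libraries of KYSE70 and NRF2null-KYSE70 (3 each) were analysed from a table deposited by the authors. Per the labels and the study's methods, the authors aligned reads to hg38 with STAR 2.6.90c, counted them with featureCounts 1.5.1 and normalized them with DESeq2. The deposited values are a signal in normalized counts, read counts divided by 1 size factor per library. The methods name a RefSeq annotation, while the table lists Ensembl identifiers. Use of strand and treatment of multiply aligned reads were not stated. Division by what 1 read is worth in a library turned 100% of values into whole reads (within 0.01 reads), and these were used as recovered reads. Totals were 52072801 to 63975313 reads. Differences were fitted with limma 3.58.1 (R 4.3.3; lmFit and eBayes with a trend) on log2(normalized count + 1), two-sided, for the 15994 genes with a mean of at least 10, with Benjamini-Hochberg adjustment over these genes. Fold changes on this scale understate those of genes with few reads. Calls required an adjusted p under 0.05, and "both thresholds" added a log2 fold change of 1 or more in absolute value. The fit was also run on simulated counts with known folds, the same spread setting for every gene and few changed genes. Many genes differed in the real data, so that run does not check the calls made here.

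The 7 genes, the lists and their use were chosen with earlier results of these data known. Genes named from each list were those past both thresholds, at most 4 in each direction, and the 4 TCF/LEF genes. Others were named after their values were seen. Nothing states that libraries came from separate cultures, so p-values measure only the spread between these libraries. Positions and exon lengths came from GENCODE v44 on hg38, which held 58472 of the 58884 gene identifiers, and upstream sequences from RefSeq (GRCh38.p14). Alternatives were pseudocounts of 0.1 and 5, other filters and scalings, limma without the trend or with robust eBayes, edgeR 4.0.16 and DESeq2 1.42.0 on recovered reads, each library left out, and, for levels per length, the longest transcript. The depth sets the precision of low values, such as TCF4 in NRF2null-KYSE70. Some listed genes are not reported here by name.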

Additional observations from a re-analysis of the deposited data

How the results depend on the processing

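Over 17 alternatives the log2 difference of TCF4 lay between -7.63 and -7.25, that of ID3 between -1.35 and -1.14, that of ID1 between -0.54 and -0.39 and that of ID2 between -0.17 and -0.04. TCF12 lay between 0.54 and 0.65 and was lowest with total scaling. TCF3 lay between 0.03 and 0.17, with 0.07 under total scaling and 0.03 under quantile normalization. ID4 lay between -0.17 and 0.00019, the highest value without library 2 of NRF2null-KYSE70. The mean ratio of ID to E-protein RNA in NRF2null-KYSE70 was 0.524 of that in KYSE70, and 0.484 to 0.559 over 7 alternatives.

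The number of genes past both thresholds was 2344, 2350 with edgeR and 2341 with DESeq2, and 1511 with a filter at a mean of 50, which tests fewer genes. With that filter the genes called at an adjusted p under 0.05 were 2 class II bHLH genes (5 without it), 3 HES, HEY and BHLHE genes (5) and 1 E-box zinc finger gene (2). Leaving out 1 library gave 3 to 5 HES, HEY and BHLHE genes, with 3 when library 1 or library 2 of KYSE70 was left out. Of 136 list counts over these alternatives 131 were within 1.5 times the main count. Total scaling moved the median of all genes by -0.08 on the log2 scale. No paired analysis was possible because the columns carry the name of the line and no replicate number. The residual TCF4 level in NRF2null-KYSE70 rests on 71 reads, and its share of the parental level is limited by counting and by what low counts can hold.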
